A study of Bos taurus with 6 samples.

Results

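The genes described here encode subunits of the mitochondrial respiratory chain and of the ATP synthase in primary bovine aortic endothelial cells, compared with and without TGF-beta 1. They were chosen by symbol in the array's annotation (NDUF subunits, SDHA to SDHD, the UQCR genes, CYC1, the COX4 to COX8 genes and the ATP5 genes), which found 85 of the 9162 genes with a named probe set. Of these, 36 belonged to complex I, 4 to complex II, 9 to complex III, 15 to complex IV and 17 to complex V, and the symbol rule also took in 4 assembly factors of complex I (NDUFAF3, NDUFAF5, NDUFAF6 and NDUFAF8), which are not subunits. NDUFA4 and its paralogue NDUFA4L2 were counted with complex IV, of which NDUFA4 is now regarded as a subunit. CYCS, COX4I2, COX6B1 and COX7B were not analysed here, and neither were the subunits encoded by mitochondrial DNA.

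The first group held 3 arrays of cultures given TGF-beta 1 at 5 ng/ml for 24 hours, and the second 3 arrays of cultures left in basal conditions. Both groups came from primary cells released from bovine aorta with collagenase and grown in RPMI medium, and the labels name no animal, sex, age or passage, so the p-values measure the spread between these arrays. Total RNA was measured on an Affymetrix bovine array, and every level given here is a log2 expression value, on which 1 unit is a doubling.

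In the respiratory chain, complexes I and II pass electrons from NADH and succinate to ubiquinone, complex III passes them on to cytochrome c and complex IV to oxygen. Complexes I, III and IV pump protons as they do so, and complex V, the ATP synthase, lets the protons flow back to make ATP. Most subunits are nuclear genes, translated in the cytoplasm and imported. Endothelial cells in culture draw much of their ATP from glycolysis, and their mitochondria are also known as a source of signals such as oxygen radicals.

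The 6 arrays had medians between 5.88 and 5.92. On the first principal component of all probe sets, with 63.4% of the variance, they did not separate by treatment. The TGFB1 arrays lay at -10.3, 39.5 and 41.4, and the basal arrays at -67.8, -38.8 and 36.0. Basal array 3 thus lay beside TGFB1 arrays 2 and 3. Basal array 1 lay farthest out. On the second component, with 24.7% of the variance, the groups were apart. TGFB1 arrays lay there at -48.0, -9.1 and -5.7, and basal arrays at 10.9, 13.7 and 38.2. The labels give no reason for the order on the first component, and its cause was not tested. Every group difference takes the labels as given. Of 6 smooth muscle markers, with 3 positive and 3 negative log2 changes, only TAGLN was called. It was higher in every TGFB1 array than in any basal array, with log2 levels of 12.18, 12.33 and 11.92 in TGFB1 arrays, against 9.90, 9.78 and 10.18 in basal arrays. Of 8 endothelial markers 6 had basal means above the 75th percentile of the arrays and none was called, with 5 negative and 3 positive log2 changes between -0.70 and 0.75. PECAM1 averaged 11.77 in TGFB1 arrays and 12.29 in basal arrays, and ROBO4 averaged 10.52 in TGFB1 arrays and 9.77 in basal arrays, while VWF (6.01 in TGFB1 arrays and 6.19 in basal arrays) lay near the array median and KDR (4.47 in TGFB1 arrays and 5.14 in basal arrays) below it. The 5 leukocyte markers had means from 3.84 to 7.10 in TGFB1 arrays and from 3.90 to 6.74 in basal arrays, highest for CD14, and the 4 fibroblast markers had means from 3.21 to 7.19 in TGFB1 arrays and from 3.27 to 7.14 in basal arrays, highest for COL1A1, with none called in either list.

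Respiratory chain genes were among the brightly measured genes of these cells. The basal mean lay above the 75th percentile of the arrays (7.57) for 80 of the 85 genes (94.1%), against 42.6% of all genes, and above the 90th percentile (9.20) for 73 of them (85.9%), against 18.3% of all genes. The genes with a basal mean under 7.57 were COX6A2, COX6B2, NDUFA4L2, NDUFAF5 and NDUFAF6. Among subunits the median basal mean was 10.29 in complex I, 10.69 in complex II, 11.06 in complex III, 11.49 in complex IV and 11.50 in complex V. Probe sets differ in how brightly they report the same amount of RNA, so these medians describe the measurements and do not rank the complexes by abundance.

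After TGF-beta 1, 1 of the 85 genes passed the test, the complex I subunit NDUFV3, which was lower. That is 1.18% of them, against 1.72% of all genes called (158 of 9162, with 0.557% higher and 1.17% lower) by limma at an adjusted p of 0.05. Before adjustment, 1 gene was higher and 6 were lower at p under 0.05, where 17.4% of all genes passed, 5.99% higher and 11.4% lower. The log2 change was below 0 for 54 of the 85 genes (63.5%) and for 55.6% of all genes, and its median was -0.08 against -0.03 over all genes. The values of the 3 TGFB1 arrays lay all above those of the basal arrays for 3 genes (3.53%, against 8.19% of all genes) and all below them for 15 (17.6%, against 15.1% of all genes). In either direction 23.3% of all genes were apart in this way. The share lying below was near that of the whole array, and the share lying above was smaller.

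**Figure D1:**
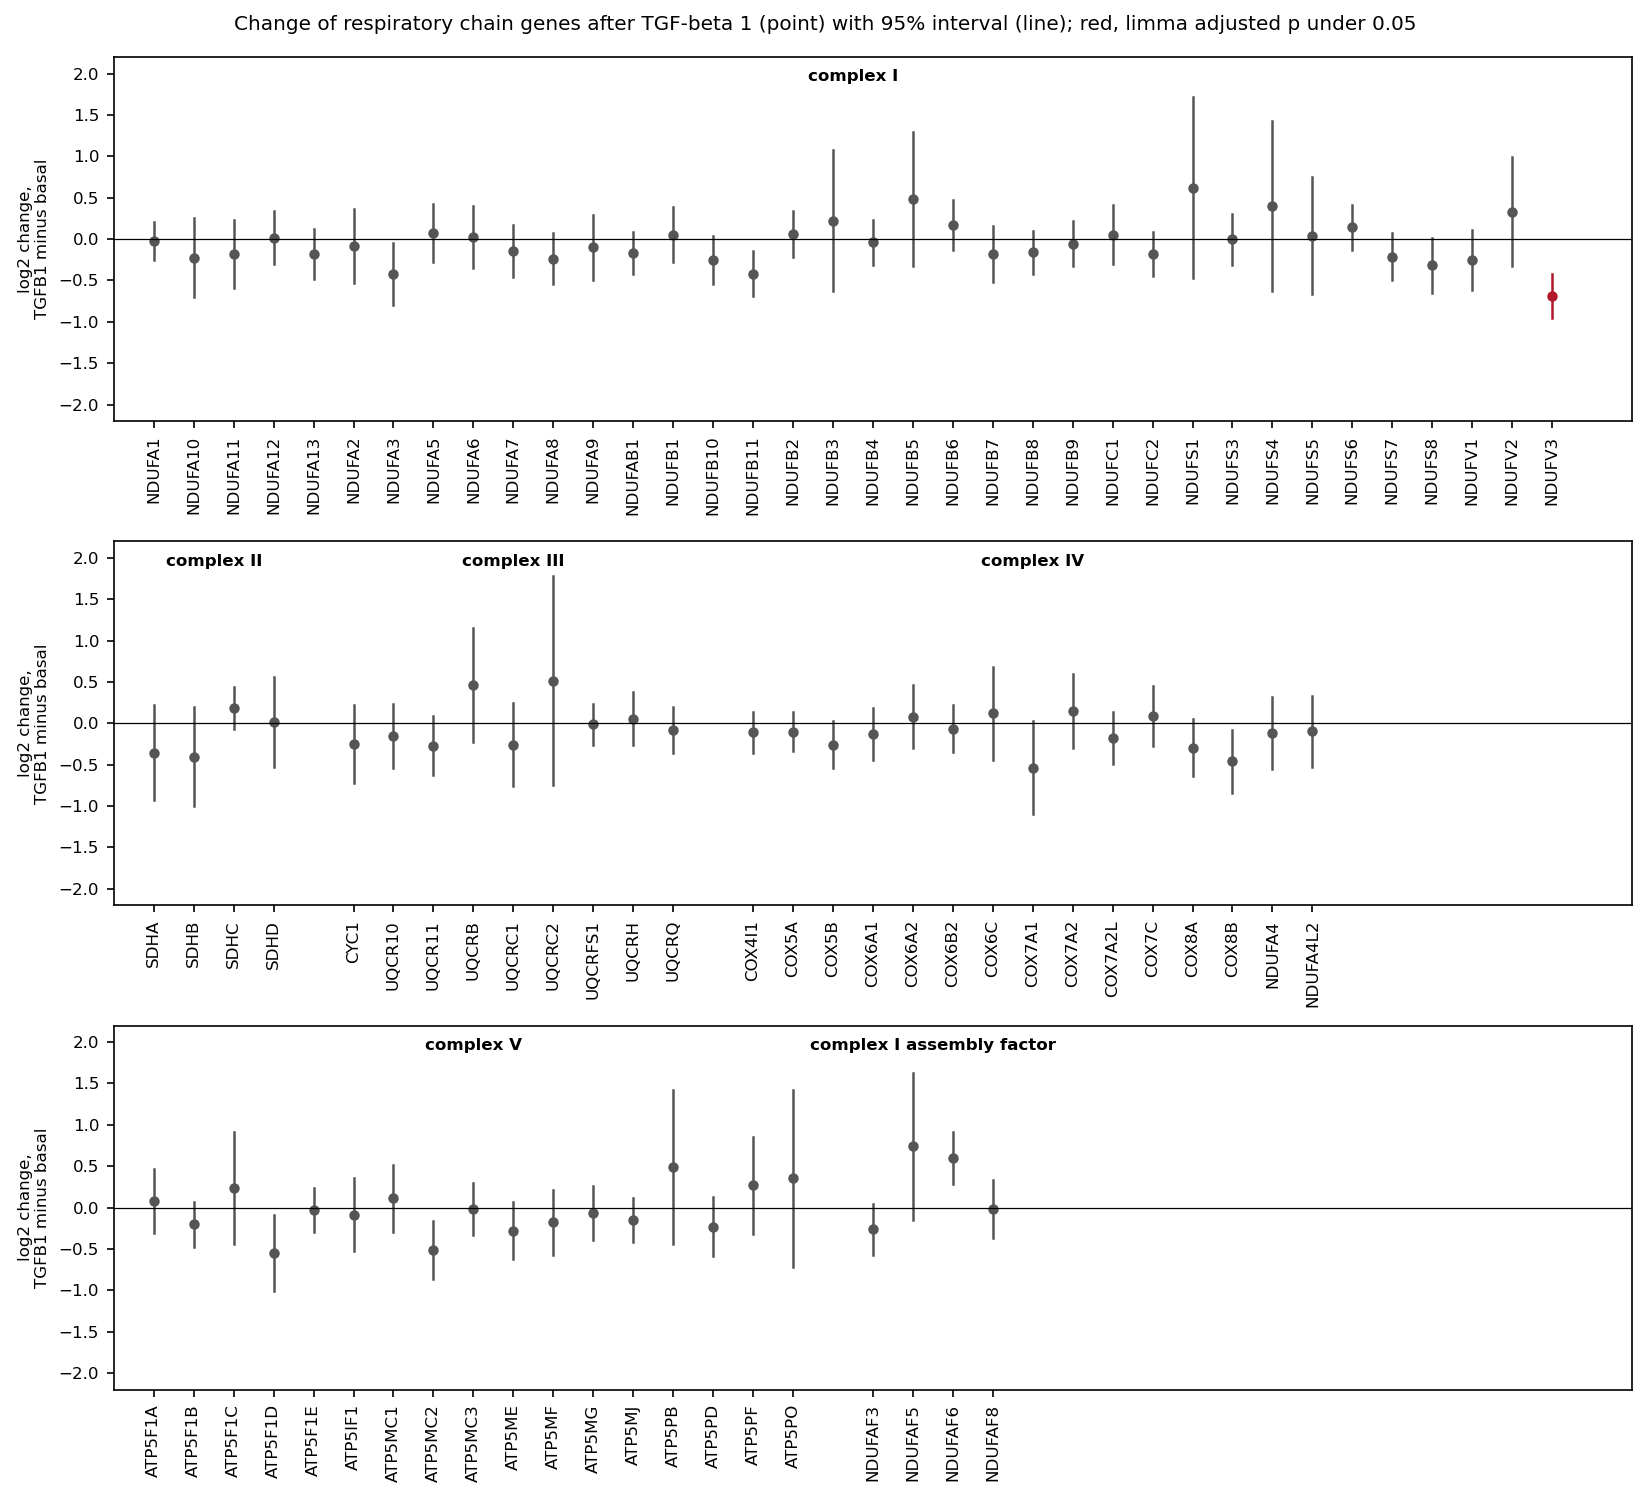
Log2 change (TGFB1 minus basal, y axis) of each respiratory chain gene (x axis), grouped by complex, with its 95% interval as a line. NDUFV3 is the 1 gene drawn in red for an adjusted p under 0.05, and most points lie within 0.5 of 0.

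The changes were small. For 81 of the 85 genes (95.3%) the estimate was within 1.5-fold in either direction, against 84.6% of all genes, and the exceptions were NDUFV3, NDUFS1, NDUFAF5 and NDUFAF6. The 95% interval excluded a change of 2-fold in either direction for 73 of the 85 (85.9%, against 73.3% of all genes), and a change of 1.5-fold for 51. The remaining genes had wider intervals, which leave larger changes undecided in these 6 arrays. In bulk RNA of this kind, fewer cells of a type and less RNA per cell cannot be told apart.

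Complex I, the NADH dehydrogenase, held the 1 called gene. NDUFV3, a small accessory subunit of the NADH-oxidising module at the tip of the matrix arm, had log2 levels of 9.34, 9.26 and 9.20 in TGFB1 arrays, against 10.04, 9.99 and 9.83 in basal arrays. All 3 TGFB1 values lay below all 3 basal values, and each group was tight. The means were 9.26 ± 0.07 in TGFB1 arrays and 9.96 ± 0.11 in basal arrays (SD, n = 3 each), a log2 change of -0.69 (SE 0.11), or 1.61-fold lower (95% interval 1.34 to 1.94), with a limma adjusted p of 0.0461. That p is close to the threshold, and the call held in 5 of 16 other settings, with log2 changes between -0.75 and -0.64 in all of them. It was lost when any array other than basal 3 was left out, after a further quantile normalization, with limma-trend, with either filter on dim genes, with the probe set of largest variance per gene and with the replicate number as a block. With any array other than basal 3 left out, only 0 to 8 of all 9162 genes were called, and with the replicate block 0. NDUFV3 had a single probe set.

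The other complex I genes showed no call. NDUFB11, an accessory subunit of the membrane arm, had log2 levels of 9.84, 10.04 and 9.84 in TGFB1 arrays, against 10.40, 10.32 and 10.26 in basal arrays. NDUFA3, another small membrane arm subunit, had levels of 9.28, 9.77 and 9.46 in TGFB1 arrays, against 10.03, 9.84 and 9.92 in basal arrays. Neither gene's groups overlapped, but the log2 changes of -0.42 for NDUFB11 (SE 0.11, limma adjusted p 0.128) and -0.43 for NDUFA3 (SE 0.16, adjusted p 0.233) did not pass. Of the 36 genes, 22 had a negative and 14 a positive change, the median was -0.07, and 7 lay below (19.4%, against 15.1% of all genes) and 1 above (2.78%, against 8.19%) with no overlap between groups. The genes below were NDUFA3, NDUFB8, NDUFB10, NDUFB11, NDUFC2, NDUFS7 and NDUFV3, and the gene above was NDUFB6.

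Within complex I the catalytic core and the accessory subunits did not part. The 6 core genes measured (NDUFV1, NDUFV2, NDUFS1, NDUFS3, NDUFS7 and NDUFS8) had a median log2 change of -0.11, and the 30 accessory genes one of -0.07. The core genes pointed both ways, with NDUFS8 at -0.32, NDUFV1 at -0.26, NDUFS7 at -0.21 and NDUFS3 at -0.0043, and NDUFV2 at 0.33 and NDUFS1 at 0.62. The NDUFS1 estimate, the largest positive one among the subunits, rested on widely spread arrays: its log2 levels were 9.51, 10.32 and 10.32 in TGFB1 arrays, against 8.66, 9.33 and 10.29 in basal arrays. Basal array 3 matched TGFB1 arrays 2 and 3, while basal array 1 and TGFB1 array 1 each lay lowest in their group, and the 95% interval ran from -0.47 to 1.72 (limma adjusted p 0.550). The other, dimmer probe sets of NDUFS1 gave log2 changes of 0.01 and 0.10, and basal array 1 was the lowest array in neither. The basal means of the complex ran from 8.89 for NDUFB5 to 11.79 for NDUFB8, both membrane arm subunits. NDUFB8 had levels of 11.62, 11.70 and 11.57 in TGFB1 arrays, against 11.92, 11.75 and 11.71 in basal arrays, a log2 change of -0.16 (SE 0.11, limma adjusted p 0.513).

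The 4 assembly factors of complex I help to build it and are not part of it. NDUFAF6 had log2 levels of 6.74, 6.49 and 6.46 in TGFB1 arrays, against 5.87, 5.93 and 6.11 in basal arrays. Its TGFB1 values lay all above its basal values, with a log2 change of 0.59 (SE 0.13), or 1.51-fold (95% interval 1.21 to 1.88), and a limma adjusted p of 0.0890, which missed the threshold. NDUFAF5 had levels of 7.18, 7.74 and 7.74 in TGFB1 arrays, against 6.32, 6.52 and 7.60 in basal arrays, and the groups overlapped through basal array 3 (log2 change 0.74, SE 0.37, adjusted p 0.374). NDUFAF3 differed the other way, with a log2 change of -0.26, and NDUFAF8 by -0.02, neither called.

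Complex II, succinate dehydrogenase, links the citric acid cycle to the chain, and its 4 subunits did not follow one pattern. SDHA, the flavoprotein that oxidises succinate, had log2 levels of 10.44, 10.41 and 10.32 in TGFB1 arrays, against 11.01, 11.02 and 10.22 in basal arrays. SDHB, the iron-sulfur subunit, had 10.61, 10.45 and 10.43 in TGFB1 arrays, against 11.15, 11.20 and 10.34 in basal arrays. In both genes basal arrays 1 and 2 were high and basal array 3 was the lowest of all 6, so the groups overlapped. The log2 changes were -0.35 for SDHA (SE 0.24, limma adjusted p 0.509) and -0.40 for SDHB (SE 0.25, adjusted p 0.472). Without basal array 3 they were -0.62 for SDHA (adjusted p 0.0206) and -0.68 for SDHB (adjusted p 0.0200), both called. In that setting 16.8% of all genes were called as well.

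The membrane anchors of complex II behaved otherwise. SDHC had log2 levels of 10.81, 10.84 and 10.82 in TGFB1 arrays, against 10.77, 10.58 and 10.57 in basal arrays. Its groups did not overlap, but the log2 change of 0.18 (SE 0.10, limma adjusted p 0.448) did not pass. SDHD had levels of 10.23, 10.55 and 10.65 in TGFB1 arrays, against 10.02, 10.61 and 10.74 in basal arrays, a log2 change of 0.02 with a 95% interval of -0.53 to 0.56. Among the basal arrays, SDHA, SDHB and SDHC were lowest in array 3, and SDHD was lowest in array 1.

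**Figure D2:**
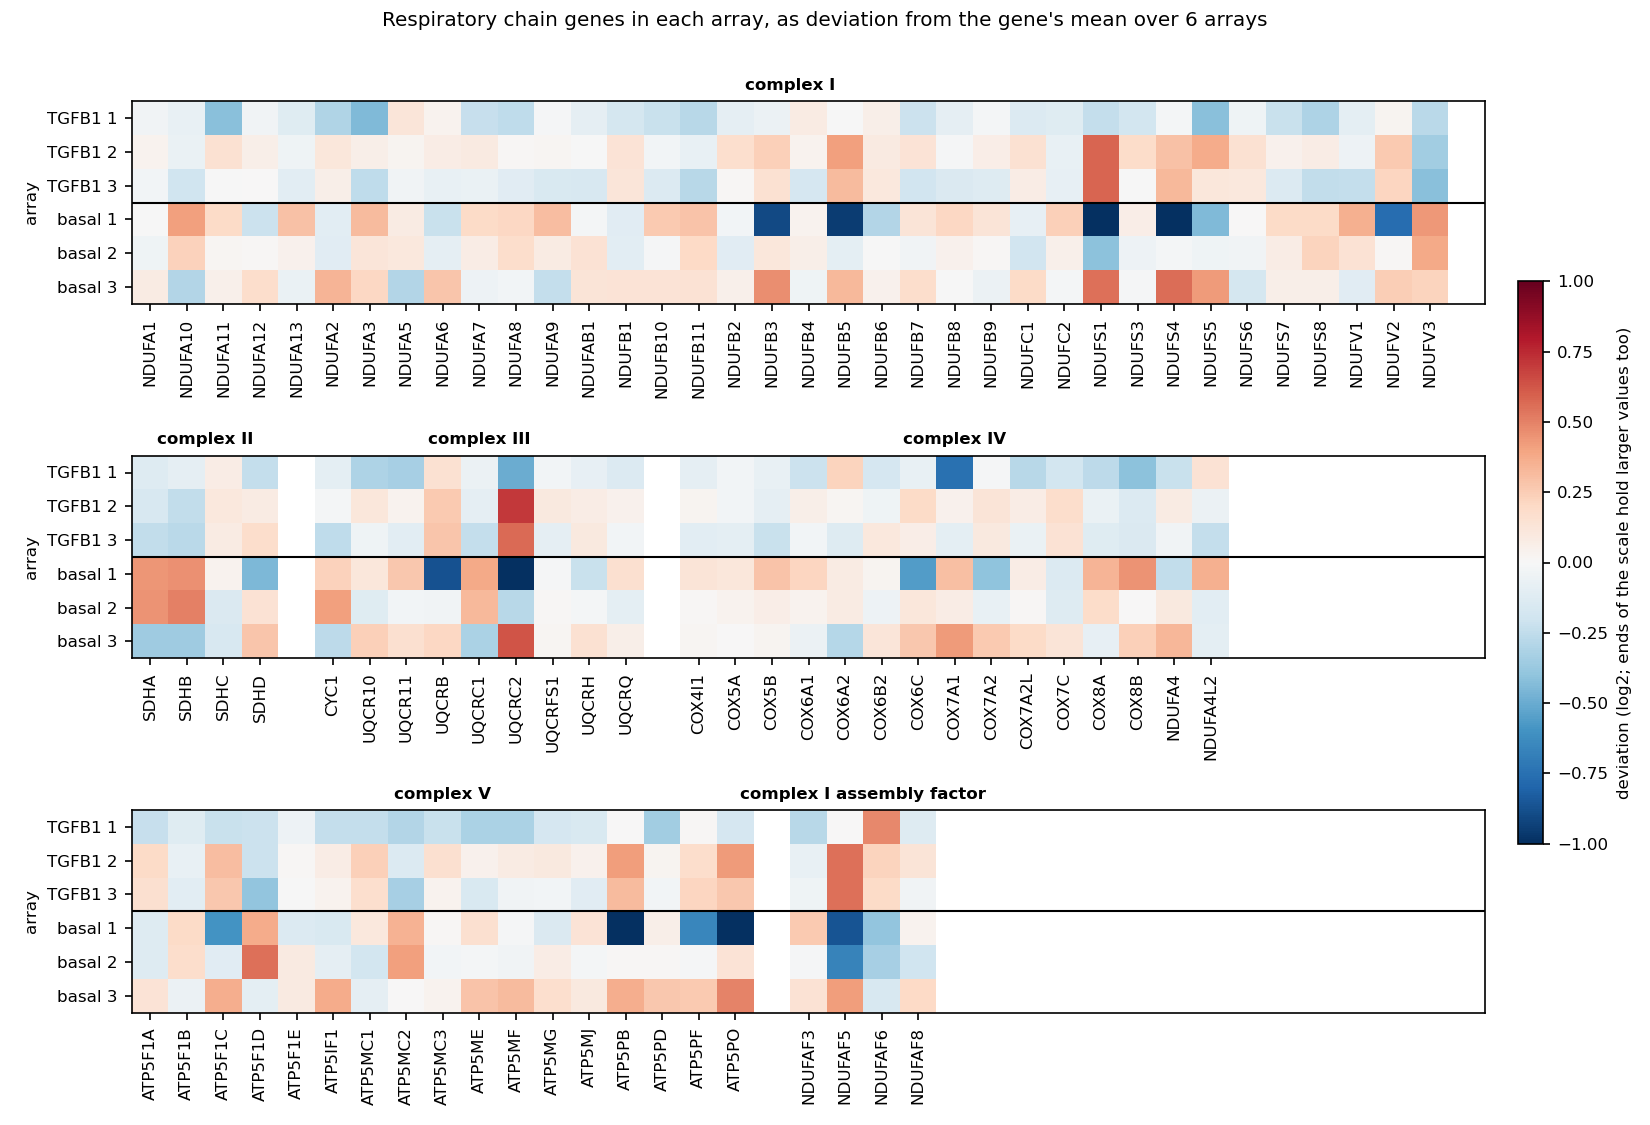
Deviation of each respiratory chain gene (x axis, grouped by complex) from its mean over the 6 arrays (y axis, TGFB1 arrays above basal arrays), on a log2 colour scale. The darkest blue cells, the strongest deviations downward, lie mostly in basal array 1, and SDHA and SDHB are red in basal arrays 1 and 2 only.

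Complex III, the cytochrome bc1 complex, had no called gene among 9, with 6 negative and 3 positive log2 changes, a median of -0.08 and no gene whose groups were apart. Of its electron carriers, the Rieske iron-sulfur protein UQCRFS1 was level at 11.03, 11.16 and 10.96 in TGFB1 arrays, against 11.05, 11.06 and 11.07 in basal arrays, and its log2 change of -0.01 had a 95% interval of -0.26 to 0.23. The cytochrome c1 gene CYC1 had 10.00, 10.08 and 9.85 in TGFB1 arrays, against 10.33, 10.51 and 9.84 in basal arrays, with basal array 3 again the lowest (log2 change -0.25, limma adjusted p 0.574). The smallest adjusted p of the complex, 0.414, belonged to the small subunit UQCR11. Its levels were 11.02, 11.39 and 11.26 in TGFB1 arrays, against 11.63, 11.33 and 11.52 in basal arrays.

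The core proteins of complex III, UQCRC1 and UQCRC2, are a pair of structural subunits on its matrix side, and their estimates had opposite signs. UQCRC1 had log2 levels of 10.04, 10.01 and 9.86 in TGFB1 arrays, against 10.47, 10.42 and 9.78 in basal arrays (log2 change -0.26). UQCRC2 had 9.17, 10.38 and 10.24 in TGFB1 arrays, against 8.54, 9.39 and 10.30 in basal arrays (log2 change 0.52, SE 0.52). A second, dimmer probe set of UQCRC2 went the other way, with 6.48, 6.25 and 6.37 in TGFB1 arrays, against 7.12, 7.05 and 6.54 in basal arrays (log2 change -0.53). The probe sets of UQCRC2 therefore disagreed and gave it no direction. UQCRB, which binds near the ubiquinone site, had 11.65, 11.77 and 11.78 in TGFB1 arrays, against 10.63, 11.47 and 11.71 in basal arrays (log2 change 0.46, limma adjusted p 0.467), where basal array 1 stood alone. Its second probe set, near the array medians, gave 6.05, 5.85 and 5.99 in TGFB1 arrays, against 5.74, 5.70 and 5.66 in basal arrays. There the log2 change was 0.26 (limma adjusted p over all probe sets 0.285), and basal array 1 was not low. The basal means of the complex ran from 8.69 for UQCRQ to 11.57 for UQCRH, and their log2 changes were -0.08 for UQCRQ and 0.06 for UQCRH.

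Complex IV, cytochrome c oxidase, had no called gene among 15. Of these, 11 had a negative and 4 a positive log2 change, the median was -0.11, and 4 genes (COX5A, COX5B, COX7A1 and COX8B) had TGFB1 arrays all below the basal arrays (26.7%, against 15.1% of all genes). COX5B, with the highest basal mean of the complex, had log2 levels of 12.12, 12.10 and 11.97 in TGFB1 arrays, against 12.48, 12.26 and 12.22 in basal arrays. COX4I1, the subunit that binds ATP as an allosteric inhibitor, had 11.98, 12.10 and 11.97 in TGFB1 arrays, against 12.20, 12.09 and 12.09 in basal arrays. The groups were apart for COX5B and overlapped by a narrow margin for COX4I1, and the log2 changes of -0.26 for COX5B (SE 0.12, limma adjusted p 0.334) and -0.11 for COX4I1 (SE 0.10, adjusted p 0.637) did not pass.

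Several complex IV subunits exist as a widely expressed form and a form of heart and skeletal muscle, and the array measured both for COX6A, COX7A and COX8. The muscle form COX8B had log2 levels of 9.55, 9.83 and 9.82 in TGFB1 arrays, against 10.41, 9.96 and 10.20 in basal arrays. The muscle form COX7A1 had 7.78, 8.57 and 8.43 in TGFB1 arrays, against 8.84, 8.61 and 8.96 in basal arrays. Both were lower in every TGFB1 array than in any basal array, though by a narrow margin, and neither passed the test (COX8B log2 change -0.46, SE 0.16, limma adjusted p 0.209, and COX7A1 -0.54, SE 0.23, adjusted p 0.309). Without TGFB1 array 1 the COX7A1 change was -0.30. A block set TGFB1 array 1 and basal arrays 1 and 2 against the other 3, and was chosen after the values were seen. With it the COX7A1 change was -0.70 and called (limma adjusted p 0.0364). In that setting 9.58% of all genes and 3.53% of the chain genes were called. The mean of the COX8B probe sets gave -0.19. COX8B also had a second probe set, with 6.01, 5.87 and 5.71 in TGFB1 arrays, against 5.87, 5.66 and 5.82 in basal arrays, near the array medians and with no such difference. The third muscle form, COX6A2, had 5.51, 5.31 and 5.16 in TGFB1 arrays, against 5.37, 5.37 and 5.00 in basal arrays, below the array medians.

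Both COX7A1 and COX8B had basal means above the 75th percentile of the arrays, whereas all 6 muscle markers measured lay below that percentile in both groups, with none called. Their means ran from 5.13 to 6.93 in TGFB1 arrays and from 5.16 to 7.44 in basal arrays. Of their log2 changes 5 were negative, from -0.51 for the myosin gene MYH7 to -0.008 for CKM, and 1 was positive, 0.15 for the myoglobin gene MB. For 2 of them the groups were apart lower (TNNT2 and TNNI3) and for 1 apart higher (MB). Over all genes 15.1% were apart lower and 8.19% apart higher. The part of the muscle markers in the COX7A1 and COX8B values was not tested. The widely expressed partners were COX8A, COX7A2 and COX6A1. COX8A had log2 levels of 11.03, 11.22 and 11.16 in TGFB1 arrays, against 11.62, 11.47 and 11.20 in basal arrays (log2 change -0.29, limma adjusted p 0.360). COX7A2 had 11.98, 12.12 and 12.09 in TGFB1 arrays, against 11.59, 11.92 and 12.25 in basal arrays (log2 change 0.15). In COX6A1 the values overlapped, and its second probe set carried the opposite sign.

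**Figure D3:**
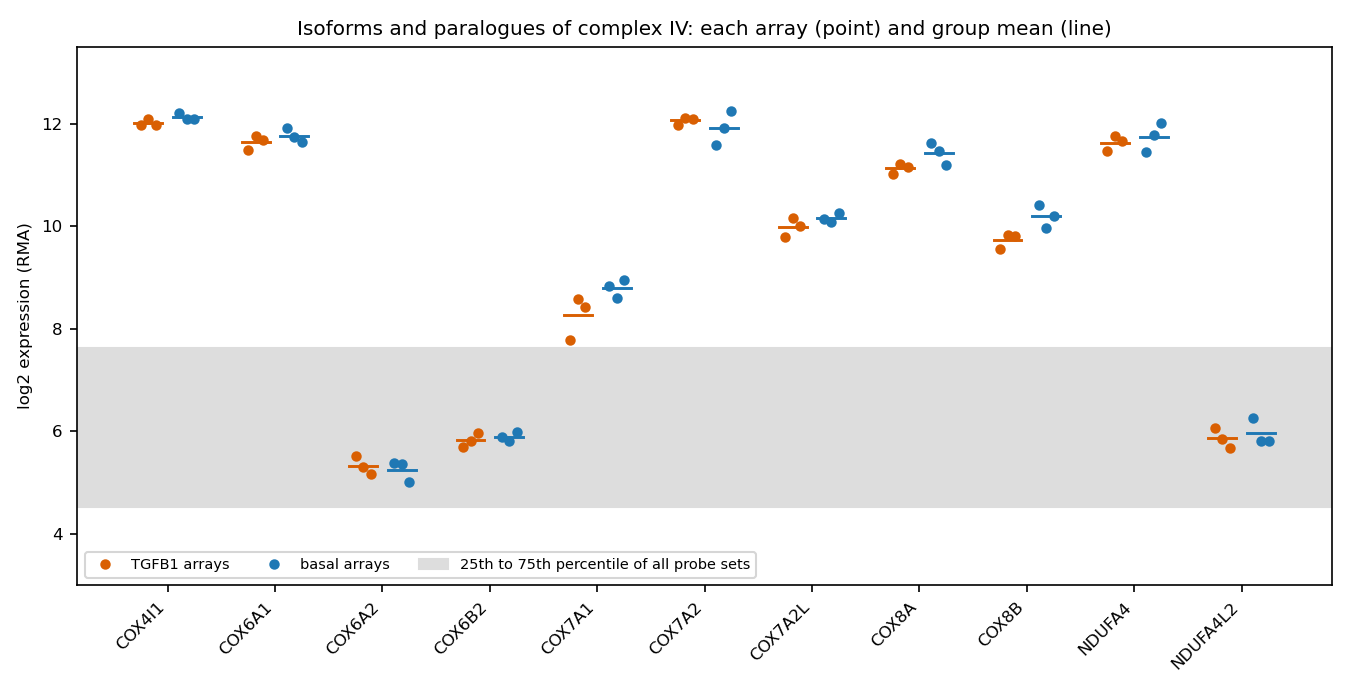
Log2 level (y axis) of complex IV isoforms and paralogues (x axis) in each array (points, TGFB1 left of basal) with group means (lines) and the 25th to 75th percentile of all probe sets as a grey band. COX7A1 and COX8B lie lower in the TGFB1 arrays with no overlap, and COX6A2, COX6B2 and NDUFA4L2 lie at about 5 to 6.3 in both groups.

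The remaining paralogues of complex IV showed little difference between groups. COX7A2L, which helps to join complexes III and IV into supercomplexes, had a log2 change of -0.18 (SE 0.13) and overlapping groups. NDUFA4 had levels of 11.47, 11.77 and 11.66 in TGFB1 arrays, against 11.44, 11.79 and 12.02 in basal arrays. Its paralogue NDUFA4L2, known in other cells as a hypoxia-induced gene, had 6.06, 5.85 and 5.67 in TGFB1 arrays, against 6.27, 5.80 and 5.81 in basal arrays, around the array medians. COX6B2, the testis form of COX6B, averaged 5.83 in TGFB1 arrays and 5.89 in basal arrays.

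Complex V, the ATP synthase, had no called gene among 17, with 11 negative and 6 positive log2 changes and a median of -0.07. Of its parts, the 5 genes of the F1 head and central stalk had a median of -0.03, the 3 c-ring genes one of -0.01, the 4 peripheral stalk genes one of 0.31 and the 4 other membrane subunits one of -0.16. The inhibitor ATP5IF1, which blocks the enzyme from running in reverse, had 11.65, 11.96 and 11.92 in TGFB1 arrays, against 11.73, 11.79 and 12.26 in basal arrays. Its groups overlapped, and the log2 change of -0.09 had a 95% interval of -0.53 to 0.35.

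The c ring turns in the membrane as protons pass, and its subunit is encoded by 3 genes whose mature protein is the same. ATP5MC2 had log2 levels of 11.13, 11.28 and 11.09 in TGFB1 arrays, against 11.77, 11.83 and 11.43 in basal arrays. Every TGFB1 value lay below every basal value, at 1.42-fold lower (95% interval 1.12 to 1.81) and a log2 change of -0.51 (SE 0.14, limma adjusted p 0.145), which did not pass. The other c-ring genes did not share this: ATP5MC1 had 9.31, 9.79 and 9.72 in TGFB1 arrays, against 9.66, 9.37 and 9.46 in basal arrays (log2 change 0.11), and ATP5MC3 had 12.18, 12.57 and 12.44 in TGFB1 arrays, against 12.42, 12.38 and 12.44 in basal arrays (log2 change -0.01). Whether ATP5MC2 differed from these genes in its response was not tested.

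In the F1 part, ATP5F1D, the delta subunit of the central stalk, had log2 levels of 8.69, 8.69 and 8.51 in TGFB1 arrays, against 9.27, 9.45 and 8.80 in basal arrays. The groups were apart, with basal array 3 the nearest to the TGFB1 arrays, and the log2 change was -0.55 (SE 0.19, limma adjusted p 0.210). The catalytic beta subunit ATP5F1B had 12.24, 12.29 and 12.26 in TGFB1 arrays, against 12.55, 12.54 and 12.31 in basal arrays (log2 change -0.20), but the mean of its probe sets gave 0.06. The alpha subunit ATP5F1A, with the highest basal mean of the complex, had 12.30, 12.72 and 12.68 in TGFB1 arrays, against 12.40, 12.40 and 12.67 in basal arrays (log2 change 0.08). ATP5ME, a small membrane subunit, had a log2 change of -0.28 (SE 0.14, adjusted p 0.386) and overlapping groups.

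The positive median of the peripheral stalk, which holds the head still against the turning ring, rested on basal array 1. ATP5PB had log2 levels of 11.18, 11.60 and 11.50 in TGFB1 arrays, against 10.07, 11.20 and 11.55 in basal arrays. ATP5PO had 11.05, 11.64 and 11.49 in TGFB1 arrays, against 10.06, 11.36 and 11.71 in basal arrays, and ATP5PF had 11.26, 11.42 and 11.47 in TGFB1 arrays, against 10.60, 11.23 and 11.51 in basal arrays. In each, basal array 1 was far below the rest while basal array 3 was the highest or the highest but for a TGFB1 array. Without basal array 1 the log2 change was 0.06 for ATP5PB, -0.14 for ATP5PO and 0.01 for ATP5PF, against 0.49, 0.35 and 0.27 over all 6 arrays. ATP5PD, the remaining stalk gene, did not share the dip and had a log2 change of -0.23.

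That dip was not confined to the stalk. In 10 of the 85 genes (11.8%, against 6.43% of all genes) basal array 1 lay more than 0.5 below each of the other 5 arrays, a limit chosen after the values were seen. They were NDUFB3, NDUFB5, NDUFS1, NDUFS4 and NDUFV2 of complex I, UQCRB and UQCRC2 of complex III, and ATP5PB, ATP5PF and ATP5PO of complex V. NDUFS4, a complex I subunit known from Leigh syndrome in humans, had log2 levels of 10.94, 11.25 and 11.28 in TGFB1 arrays, against 9.82, 10.94 and 11.52 in basal arrays. NDUFB5 had 9.13, 9.55 and 9.45 in TGFB1 arrays, against 8.18, 9.04 and 9.46 in basal arrays. The log2 changes of the 10 genes ran from 0.22 to 0.62, but their sign follows in part from the way the genes were picked and shows nothing of its own.

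A second set of genes was highest in basal arrays 1 and 2. In 13 of the 85 genes (15.3%, against 18.4% of all genes) both of those arrays lay more than 0.1 above the other 4, again a limit chosen after the values were seen. They were NDUFA8, NDUFA10, NDUFS8, NDUFV1 and NDUFV3 of complex I, SDHA and SDHB, CYC1 and UQCRC1, COX8A, and ATP5F1B, ATP5F1D and ATP5MC2. Their log2 changes ran from -0.69 to -0.20, and here too the sign follows in part from the way the genes were picked. In ATP5F1B, ATP5F1D, ATP5MC2 and NDUFV3 basal array 3 also lay above every TGFB1 array. Among these genes only NDUFV3 had a margin wider than its TGFB1 range, and outside the set NDUFB11, for one, had such a margin too.

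**Figure D4:**
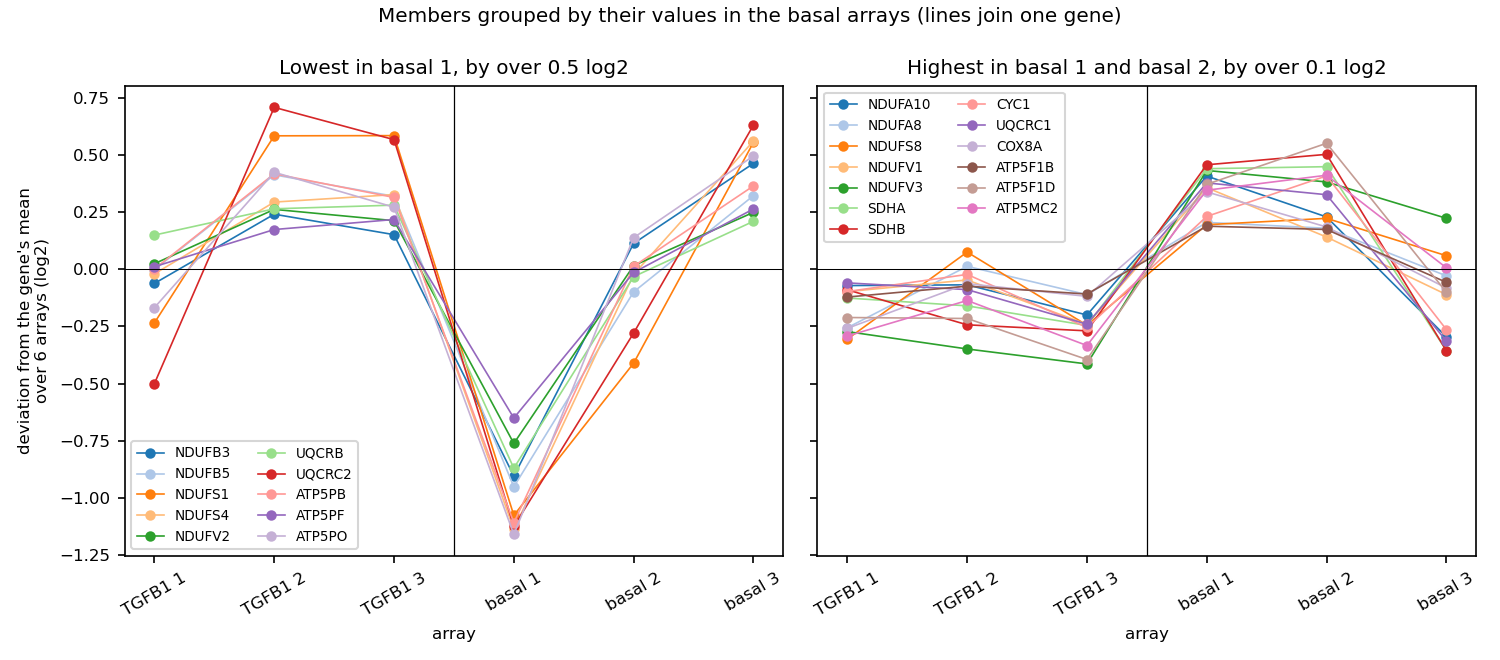
Deviation from the gene's mean over 6 arrays (log2, y axis) in each array (x axis, TGFB1 arrays left of basal arrays) for the 10 genes lowest in basal array 1 and the 13 genes highest in basal arrays 1 and 2, 1 line per gene. Basal arrays 1 and 3 lie on opposite sides of 0 in most genes of both sets, and the TGFB1 arrays span less than the basal arrays in most of them.

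The spread among basal arrays was wider than the change for most genes. The range of the 3 basal values exceeded the size of the log2 change in 73 of the 85 genes (85.9%), against 80.1% of all genes. The median range was 0.27 among TGFB1 arrays and 0.33 among basal arrays, against 0.28 among TGFB1 arrays and 0.42 among basal arrays over all genes. Basal array 1 also had the highest 3′ over 5′ log2 difference of the array's control probe sets. For the GAPDH control it was 0.43, 0.26 and 0.35 in TGFB1 arrays, against 0.49, 0.28 and 0.38 in basal arrays. For the eIF-4E control it was 3.46 in basal array 1, with TGFB1 array 1 next at 3.20. For the cyclophilin control basal array 1 (1.62) was almost level with basal array 3 (1.61), which did not share the dip. The 3′ over 5′ difference grows as the labelled RNA gets shorter, and its part in the dip was not tested.

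Where a gene had several probe sets, some showed the dip and others did not. NDUFB2 had log2 levels of 9.36, 9.62 and 9.47 in TGFB1 arrays, against 9.43, 9.34 and 9.51 in basal arrays, by the probe set used here. A second probe set of NDUFB2 gave 9.15, 9.54 and 9.53 in TGFB1 arrays, against 7.91, 8.89 and 9.50 in basal arrays. ATP5MG had 12.18, 12.45 and 12.32 in TGFB1 arrays, against 12.21, 12.42 and 12.52 in basal arrays by the probe set used, and 9.32, 9.76 and 9.73 in TGFB1 arrays, against 8.65, 9.54 and 10.09 in basal arrays by the other. In both genes basal array 1 was lowest by a wide margin with one probe set and not with the other. Of the 85 genes, 22 had several probe sets, and in 12 of these all other probe sets had the sign of the one used.

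Genes that build, feed or surround the chain were read from the same fit, in lists that hold no gene of the chain. Among the 22 genes of the citric acid cycle and pyruvate entry, 1 was called, where 1.72% of all genes were called. IDH3A, the catalytic subunit of the NAD-dependent isocitrate dehydrogenase, had log2 levels of 11.71, 11.62 and 11.54 in TGFB1 arrays, against 10.23, 10.49 and 10.85 in basal arrays. It rose by 1.10 (SE 0.18, limma adjusted p 0.0464), with every TGFB1 array above every basal array. The list's median log2 change was 0.08, and MPC1, a subunit of the mitochondrial pyruvate carrier, had a log2 change of 0.55 (adjusted p 0.120). Of the 11 carriers and porins of energy exchange, 1 was called, UCP2, beside the same 1.72% of all genes. UCP2, a carrier of the inner membrane named as an uncoupling protein, had 7.04, 7.06 and 6.92 in TGFB1 arrays, against 8.01, 7.90 and 7.71 in basal arrays. It fell by 0.87 (SE 0.12, adjusted p 0.0371), with no overlap, while the ADP/ATP carrier SLC25A4 had a log2 change of 0.44 (adjusted p 0.161) and the list a median of 0.01. Both calls, like that of NDUFV3, were lost when any array other than basal 3 was left out. In those settings only 0 to 8 of all 9162 genes were called.

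The lists of assembly factors had no called gene, with 6 further genes for complex I, 18 for complexes II to IV and 4 for complex V. Their median log2 changes were -0.19 for complex I, 0.01 for complexes II to IV and -0.28 for complex V. The members with the smallest p were ACAD9 (log2 change -0.54) and COA1 (-0.38) for complex I, COA3 (-0.62) and UQCC3 (-0.32) for complexes II to IV, and FMC1 (-0.65) and TMEM70 (-0.36) for complex V. FMC1 had log2 levels of 7.60, 7.70 and 7.48 in TGFB1 arrays, against 8.70, 7.99 and 8.04 in basal arrays, apart but with an adjusted p of 0.195.

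The median log2 change of the 67 genes of the mitochondrial ribosome was -0.02. At an unadjusted p under 0.05, 1 was higher and 9 were lower, where 5.99% of all genes were higher and 11.4% lower. None was called. MRPS34, a protein of the small subunit, came nearest, with log2 levels of 8.84, 8.74 and 8.67 in TGFB1 arrays, against 9.44, 9.56 and 9.27 in basal arrays (log2 change -0.67, limma adjusted p 0.0569). MRPL14 had a log2 change of -0.69 (adjusted p 0.0871). Among 27 genes of protein import none was called, with a median of 0.10. Before adjustment 4 were higher and 1 was lower, beside the same shares of all genes. TIMM22, the channel for carrier proteins, had a log2 change of 0.64 (adjusted p 0.0890), and HSPA9, the matrix chaperone that drives import, one of 0.74 (adjusted p 0.0994).

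Of 14 regulators of mitochondrial biogenesis none was called, and the median log2 change was -0.03. SIRT3, a mitochondrial deacetylase, had log2 levels of 5.16, 5.16 and 5.16 in TGFB1 arrays, against 5.76, 5.56 and 5.70 in basal arrays, all below the array medians (log2 change -0.51, limma adjusted p 0.0743). TFB2M, a factor for transcription of mitochondrial DNA, had 8.79, 8.96 and 9.02 in TGFB1 arrays, against 6.74, 7.53 and 8.60 in basal arrays. Its TGFB1 arrays lay all above the basal arrays, but the basal arrays differed among themselves so widely that the log2 change of 1.30 had an SE of 0.45 and an adjusted p of 0.212. PPARGC1A, the coactivator best known for raising mitochondrial content, averaged 4.47 in TGFB1 arrays and 4.48 in basal arrays, and NRF1 averaged 5.44 in TGFB1 arrays and 5.46 in basal arrays. Of 12 genes that use electrons of the chain or remove oxygen radicals none was called, with a median of -0.12, the antioxidant enzyme PRDX5 at -0.37 and DHODH, which passes electrons from pyrimidine synthesis to ubiquinone, at 0.54.

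**Figure D5:**
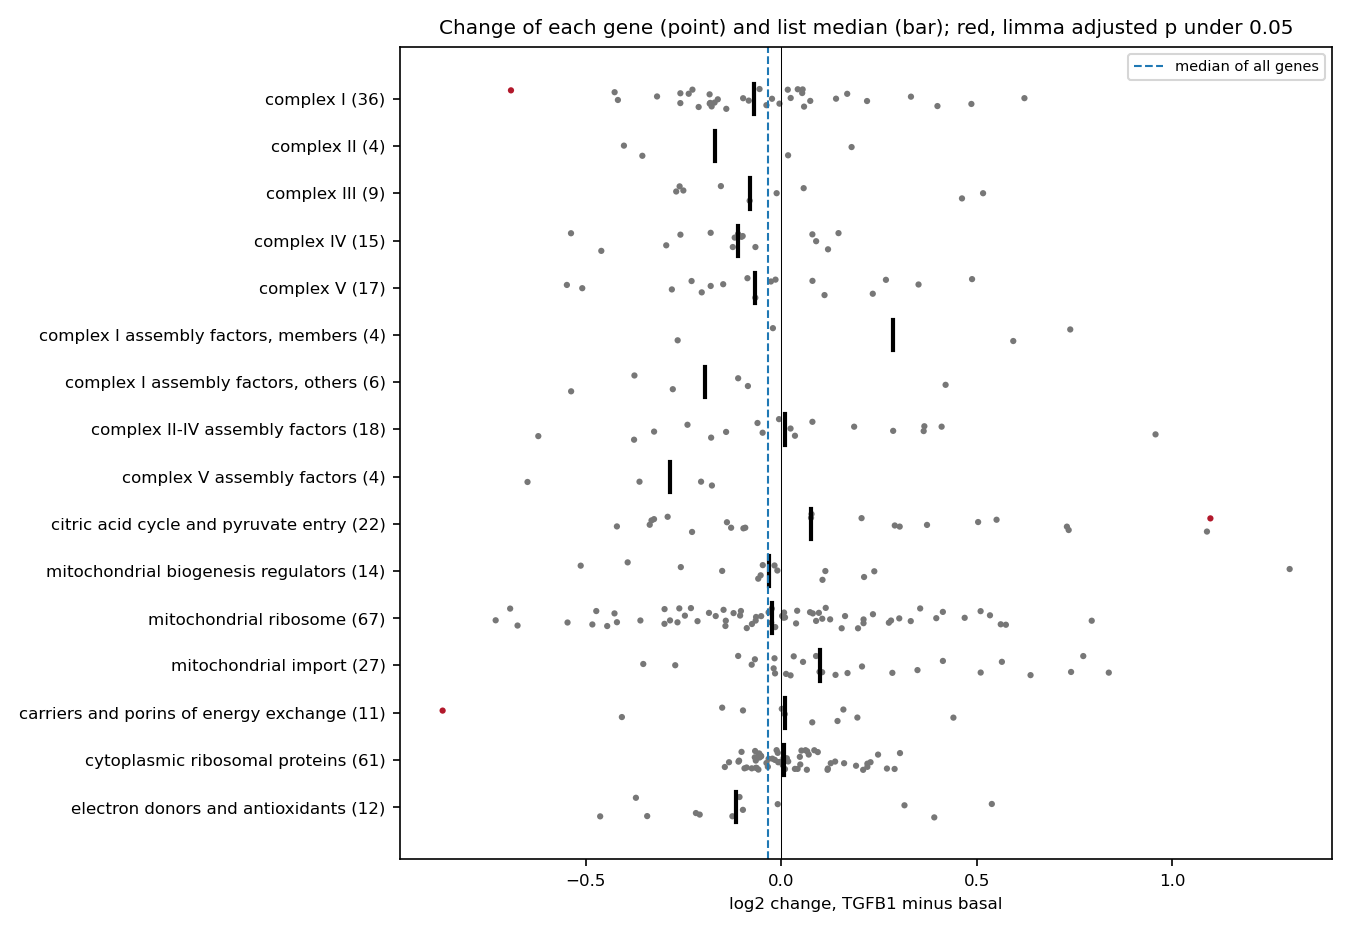
Log2 change (TGFB1 minus basal, x axis) of every gene (points) in the respiratory complexes and in the other mitochondrial lists (y axis), with the list median as a bar. NDUFV3, IDH3A and UCP2 are drawn in red for an adjusted p under 0.05, and the list medians lie between -0.28 and 0.29.

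The 61 cytoplasmic ribosomal protein genes, another set of abundant transcripts set beside the chain, had 0 calls by limma and 0 genes at an unadjusted p under 0.05, with a median log2 change of 0.01. Their median basal mean was 13.01, against 10.64 for the chain genes, and their median range among TGFB1 arrays was 0.07, against 0.27. The respiratory chain genes, with 1 call and 7 genes at an unadjusted p under 0.05, were not tested against them. Over all genes 1.72% were called and 17.4% had an unadjusted p under 0.05.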

How the data were processed

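Total RNA of 6 cultures, 3 per group, was hybridised to Affymetrix bovine arrays. Per the submitters' processing notes, which name RMA and affy but no version, the authors deposited log2 values. RMA normalizes the arrays to a common distribution, compresses changes near background and gives no detection call. Precision is set by the small number of arrays. Columns were assigned to samples by label, with 0 columns unused.

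Of 24128 probe sets, 112 controls were left out. The array annotation gave 1 symbol for 13292, several for 86 (not named) and none for 10638. By gene identifier, 13263 of the named probe sets matched the RefSeq table of assembly ARS-UCD2.0, with 0 symbols changed, and all 85 chain genes matched. No coordinates are given, since the annotation names no build. Each of the 9162 genes was read from its probe set of highest mean.

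The comparison used limma 3.58.1 (R 4.3.3) with lmFit and eBayes (group only, 4 residual and 2.14 prior degrees of freedom), two-sided, adjusted by Benjamini-Hochberg over all genes at 0.05, with no filter on dim probe sets. The script was tested on simulated data. An exact permutation test of 3 against 3 arrays cannot go below 0.1. Complexes and lists are given by counts and medians, with no test. The genes and lists were chosen with earlier results of these data known. Genes were named when called, when among the 3 smallest p of a complex or the 2 smallest of another list, at the ends of a complex's basal means, as isoforms or regulators, or where probe sets disagreed in sign. Those named for their spread among basal arrays were chosen after their values were seen. The alternatives were other normalizations, priors, dim filters, probe set rules and thresholds, a replicate block, and each array left out.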

Additional observations from a re-analysis of the deposited data

How the results depend on the processing

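The median log2 change of each complex moved by less than the spread between arrays in every setting tried. The number of chain genes called was 1 with each array centred on its median, robust eBayes or the mean of all probe sets, each time NDUFV3. It was 0 after a further quantile normalization, with limma-trend, with only genes above the 25th percentile or above the median, with the probe set of largest variance and at an adjusted p under 0.01, and 2 at under 0.1 (NDUFV3 and NDUFAF6). Over all genes, against 158 called, limma-trend called 99, the threshold of 0.1 called 433 and that of 0.01 called 0. The other mitochondrial lists, against 2 called, gave 1 with limma-trend, 8 at 0.1 and 0 at 0.01.

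Leaving out each array in turn gave 0 to 8 chain genes, 0 to 31 genes of the other lists and 0 to 1538 of all genes, the highest each time without basal array 3. Leaving out any other array gave 0 chain genes and 0 to 8 of all genes. The 8 chain genes were NDUFV3, SDHA, SDHB, UQCRC1, ATP5F1D and ATP5MC2, lower, and NDUFAF5 and NDUFAF6, higher (9.41%, against 16.8% of all genes). A block for basal arrays 1 and 2 and TGFB1 array 1 against the other 3, chosen after seeing the data, called 3 chain genes (NDUFV3, NDUFAF6 and COX7A1), 10 of the other lists and 878 of all genes. That is 3.53% of the chain genes, against 9.58% of all genes. With the replicate number as a block, 0 chain genes, 0 of the other lists and 0 of all genes were called. Same-numbered arrays deviated together for numbers 1 (r = 0.670 across genes) and 3 (0.703) and not for number 2 (-0.509). Differently numbered arrays did so too, as TGFB1 array 1 with basal array 2 (0.568) and TGFB1 array 2 with basal array 3 (0.668). These values therefore cannot show whether the numbers pair the samples, and the labels do not say.

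Signs turned for some genes, UQCRC2 and ATP5F1B with larger changes among them. With the mean of all probe sets the log2 change was 0.0463 for NDUFS3, -0.00884 for UQCRC2, 0.0166 for COX6A1, 0.0584 for ATP5F1B and 0.0548 for ATP5MG. With the probe set of largest variance it was 0.16 for COX6A1, 0.32 for ATP5F1B and 0.18 for ATP5MG. After quantile normalization SDHD had -0.00888, and with the array block SDHD had -0.11, UQCRH -0.0167 and ATP5F1A -0.0319. Leaving out an array gave ranges from -0.20 to 0.16 for SDHD, -0.0965 to 0.0873 for NDUFS3, -0.15 to 0.0028 for ATP5MG, -0.0433 to 0.16 for COX6A2, -0.18 to 0.0795 for ATP5IF1, -0.0998 to 0.0936 for ATP5MC3, -0.13 to 0.0734 for NDUFAF8, -0.0377 to 0.15 for UQCRH, -0.13 to 0.28 for COX6C, -0.019 to 0.31 for COX7A2, -0.20 to 0.0549 for NDUFA4L2, -0.0544 to 0.14 for NDUFA5 and -0.27 to 0.0166 for NDUFA4. Among genes named for their spread, NDUFB3 had -0.18, NDUFS4 -0.069 and ATP5PO -0.14 without basal array 1. The causes were not tested. Genes below the array median lie near background, where RMA limits the change that can be seen.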
